A study of Mus musculus with 12 samples.

Results

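The comparison described here sets cultured mouse heart fibroblasts that were given GDF15 against untreated fibroblasts of the same kind. It holds 8 of the 12 arrays of the series, 4 labelled GDF15 and 4 labelled control, taken by their titles. The GDF15 cells were kept for 48 h with 500 nmol/L of the protein, and the control labels name no treatment and no time. All cells were primary cardiac fibroblasts from female C57/BL6 mice aged 10 to 16 weeks, grown in Dulbecco's modified Eagle's medium with 10% fetal calf serum. The labels do not say how many hearts were used, whether hearts were pooled, or whether each array had a culture of its own. The p-values therefore speak only of variation among arrays, part or all of which could be technical. The remaining 4 arrays held cells of the same source given 200 nmol/L CCN2 for 48 h, and they entered the model fit and 1 direct comparison below.

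GDF15 (growth differentiation factor 15) is a secreted protein, distantly related to TGF-beta, that many tissues release under stress, the injured heart among them. Its established receptor is GFRAL, a relative of the GDNF receptors that is found mainly in the hindbrain and signals with the receptor tyrosine kinase RET. Cardiac fibroblasts make the collagen-rich matrix of the heart, can turn into contractile myofibroblasts, and answer cytokines and microbial products through NF-kB and interferon response factors. NF-kB switches on chemokine, cytokine and acute phase genes and also the genes of its own inhibitors.

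Transcripts were read on bead arrays as a fluorescence intensity per probe, and all values below are normalized log2 intensities, on which a difference of 1 is a doubling. Of 45281 probes, 20445 were detected on at least 4 of the 12 arrays and were tested, and they stood for 11018 genes, each represented by its brightest probe. A gene is said to have risen or fallen where its adjusted p, from limma with Benjamini-Hochberg adjustment over all tested probes, was under 0.05. The GDF15 arrays had 19004 to 19481 detected probes and the control arrays 19211 to 19691, and the means of 19198 ± 220 and 19430 ± 198 (SD, n = 4 each) gave p = 0.2 in an exact two-sided permutation test, where 0.0286 is the smallest value 4 against 4 arrays allow. The upper quartile of the raw signal was 87.4 ± 8.00 on GDF15 arrays and 90.4 ± 5.46 on control arrays (exact permutation p = 0.571). Correlations over the tested probes were 0.9869 to 0.9943 among GDF15 arrays and 0.994 to 0.9956 among control arrays, and 0.9779 to 0.9834 between the groups. The GDF15 arrays varied more among themselves, with a median SD per tested probe of 0.150, against 0.119 for the control arrays. In a principal component analysis of the 8 arrays, component 1 (57.7% of variance) separated the groups, and component 2 (17.1%) had arrays 9 and 11 on one side and arrays 10 and 12 on the other among the GDF15 arrays.

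After GDF15, 2471 of the 11018 genes passed the test, which is 22.4% of them. 1075 rose (9.76%) and 1396 fell (12.7%). The counts of rises and falls in lists and families below are to be read beside these shares. At an unadjusted limma p under 0.05, 3687 of the 11018 genes differed in either direction. List counts at an unadjusted p are to be read beside that number. Rises and falls of at least 2-fold were similar in number, at 142 and 143 genes. More rises than falls were at least 4-fold, at 33 and 13 genes. On the probe level 1909 rose and 2179 fell, a share of rises of 46.7%, which became 34.5% (1309 and 2483) when arrays were scaled to one median instead of quantile-normalized. The median log2 difference over all genes was -0.018. Among the 15 genes with the largest rises were the chemokine genes Ccl5, Cxcl2 and Ccl2, the acute phase genes Saa3, Lcn2 and Hp, and the stefin genes Csta2 and Cstdc4. Among the 15 with the largest falls were the growth factor gene Ptn, the matrix genes Matn4, Cthrc1 and Comp, and the macrophage genes Fcrls, Vsig4 and Cx3cr1.

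**Figure D1:**
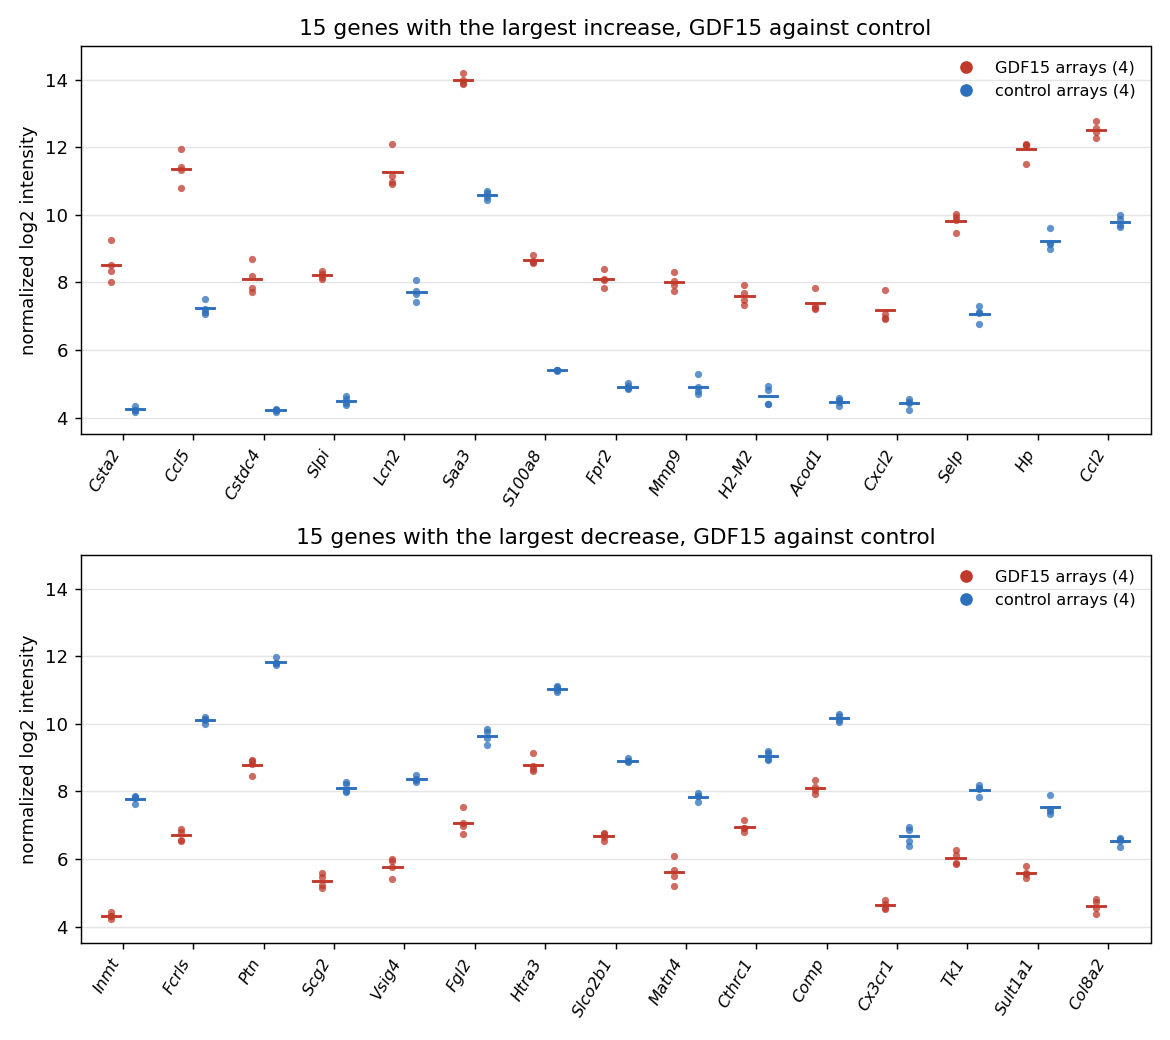
Normalized log2 intensity on each GDF15 array (red, left of each pair) and each control array (blue, right) for the 15 genes with the largest fitted rise (top) and fall (bottom), with a bar at the mean of 4 arrays. No gene has overlapping groups, as the choice of these genes required, and predicted transcripts and clone symbols were passed over. No control array detected Csta2 or Cstdc4 and no GDF15 array detected Inmt, so their differences are bounds and their places in the order are not settled. Among the others the differences run from 4.12 (Ccl5) to 2.71 (Ccl2) and from -3.41 (Fcrls) to -1.91 (Col8a2).

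Transcripts of the established receptor were not detected in GDF15 or control cells. The probe for Gfral was not detected on any of the 12 arrays and was not tested. Of the 3 probes for Ret, none was detected on a GDF15 or a control array, and the brighter tested probe read 4.18, 4.24, 4.22 and 4.20 on GDF15 arrays and 4.27, 4.20, 4.28 and 4.28 on control arrays, all below detection. Of 18 tested genes of the receptor list, which holds the GDNF receptor alpha chains, the TGF-beta superfamily receptors and their SMAD proteins, 2 rose and 2 fell, with a median difference of 0.10. That is 11.1% each way, near the 9.76% and 12.7% of all genes tested. Bmpr2, the type II receptor for bone morphogenetic proteins, read 11.10, 11.07, 11.02 and 11.22 on GDF15 arrays and 10.05, 10.44, 10.19 and 10.33 on control arrays, a rise of 0.85 ± 0.09 (SE; adjusted p = 3.6e-06) with no overlap. Gfra1, the receptor chain that binds GDNF, fell by 0.48 ± 0.12 (adjusted p = 0.0093). Tgfbr1, the type I TGF-beta receptor, fell by 0.32 ± 0.09, but with the mean of its 2 probes the difference was -0.17 and did not pass (adjusted p = 0.328). The other TGF-beta, activin and BMP receptors of the list did not pass the test. Smad1, which carries BMP signals to the nucleus, rose by 0.28 ± 0.09, a call lost without any 1 of GDF15 arrays 10 and 12 and the control arrays (adjusted p 0.0516 to 0.106). The mean of the 5 Smad1 probes differed by 0.10 (adjusted p = 0.36).

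The genes that NF-kB is known to switch on moved together and upwards. Of 33 tested members of this list, 26 rose and 0 fell by limma (0 fell at an unadjusted p under 0.05 too), and the median difference was 0.90. The members that rose included chemokines, cytokines and feedback inhibitors of NF-kB itself. Counts of rises ran from 25 to 27 under the alternatives tried. Of the 33, 3 were detected on no GDF15 array and 7 on no control array. These passed the detection filter only through the other arrays, so their calls are descriptions.

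Ccl5, a chemokine that draws T cells and monocytes, read 11.31, 11.94, 10.78 and 11.40 on GDF15 arrays and 7.22, 7.51, 7.07 and 7.13 on control arrays. All GDF15 arrays lay over 3 units above the highest control array, and the rise was 4.12 ± 0.17 (17.4-fold, adjusted p = 3.7e-11). Ccl2, the main monocyte attractant, read 12.45, 12.78, 12.26 and 12.57 on GDF15 arrays and 9.99, 9.88, 9.64 and 9.70 on control arrays, a rise of 2.71 ± 0.11 (adjusted p = 2.8e-11). The neutrophil attractants Cxcl1 and Cxcl2 rose as well. Cxcl1 read 11.88, 12.18, 11.90 and 11.55 on GDF15 arrays and 9.49, 9.34, 9.23 and 9.18 on control arrays, with a difference of 2.57 ± 0.11 (adjusted p = 9.4e-11). Cxcl2 read 6.95, 7.79, 6.92 and 7.05 on GDF15 arrays, where array 10 stood highest, and 4.44, 4.56, 4.21 and 4.47 on control arrays, of which only 1 detected it (difference 2.76 ± 0.15, adjusted p = 9.5e-10).

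Among the cytokines, Il6 read 9.58, 10.02, 9.43 and 10.33 on GDF15 arrays and 7.92, 8.00, 7.86 and 7.96 on control arrays, and Tnf read 6.81, 6.68, 6.53 and 6.49 on GDF15 arrays and 5.55, 5.28, 5.37 and 5.36 on control arrays. Both sets were separate, with rises of 1.90 ± 0.15 and 1.24 ± 0.10 (adjusted p = 6.7e-08 and 6.7e-08). Il1a and Il1b, the interleukin-1 ligands, were detected on every GDF15 array and on no control array, so their rises are lower bounds. Il1a was at least 3.71-fold higher and Il1b at least 2.07-fold higher in GDF15 cells. Both passed the detection filter only through arrays of treated cells. Il1b was uneven among GDF15 arrays, highest on array 10 and lowest on array 12, at 5.74, 6.42, 5.37 and 4.83, against 4.27, 4.29, 4.16 and 4.20 on control arrays. Acod1, which makes the immune metabolite itaconate, read 7.25, 7.84, 7.30 and 7.21 on GDF15 arrays and 4.52, 4.57, 4.45 and 4.34 on control arrays, 1 of which detected it, a rise of 2.93 ± 0.12 (adjusted p = 3.7e-11). Of the inhibitors, Nfkbia (IkB-alpha) read 8.92, 9.09, 8.83 and 8.83 on GDF15 arrays and 8.00, 8.27, 8.03 and 7.75 on control arrays, a rise of 0.90 ± 0.11 (adjusted p = 8.1e-06), and Tnfaip3 (A20) rose by 1.17 ± 0.11 (adjusted p = 9.7e-07). Members that did not pass included Icam1, at 0.13 ± 0.09, Rela, at 0.08 ± 0.08, Nos2, at -0.04 ± 0.12, and Ptgs2, which was detected on no GDF15 and no control array.

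The promoters of these genes were read for known motif letters, from RefSeq's sequences on GRCm38.p6, each running from 250 bases before to 50 bases after the gene's start. On both strands 6 motifs were searched: the NF-kB consensus, the interferon response factor motif GAAANNGAA, the E2F motifs TTTCCCGC and TTTGGCGC, the cell cycle homology motif TTTGAA and the STAT motif TTCNNNGAA. Of the 26 NF-kB genes that rose, 19 had 25 promoters in the table, and 14 of these (56.0%) held the NF-kB consensus, against 10.5% of the promoters of all genes tested and 8.46% of all 32851 promoters. The list was written from known NF-kB targets, so this share describes the list and not the effect of GDF15. List members that did not pass were not counted. Of 10 promoters of 9 acute phase genes that rose, 1 (10.0%) held it. Cxcl1 (chr5:90890995-90891294, plus strand) and Cxcl2 (chr5:90903649-90903948, plus strand) are shown because they are neighbouring chemokine genes that rose alike and carry the same NF-kB letters, in capitals, at different distances from the start. Counted from the start, with negative numbers upstream, the match begins at position -71 in Cxcl1 and at -97 in Cxcl2, and 1 base further on it reads again on the other strand.
Cxcl1: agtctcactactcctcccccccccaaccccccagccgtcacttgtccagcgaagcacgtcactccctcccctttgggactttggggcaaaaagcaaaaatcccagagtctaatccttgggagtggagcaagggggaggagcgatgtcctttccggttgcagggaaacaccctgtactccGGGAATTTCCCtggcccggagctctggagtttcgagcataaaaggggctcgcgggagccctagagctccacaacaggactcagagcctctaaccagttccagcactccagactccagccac
Cxcl2: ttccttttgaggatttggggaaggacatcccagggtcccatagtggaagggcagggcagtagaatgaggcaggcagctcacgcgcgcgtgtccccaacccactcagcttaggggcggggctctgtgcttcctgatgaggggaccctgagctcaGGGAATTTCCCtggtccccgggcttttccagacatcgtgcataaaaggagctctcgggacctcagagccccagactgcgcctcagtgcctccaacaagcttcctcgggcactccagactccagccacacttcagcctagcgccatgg

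Acute phase and antimicrobial proteins, the secreted molecules that rise in blood and at barriers during infection, gave the list with the highest median, 1.76. Of 16 tested members 12 rose and 0 fell by limma, though 1 (C4b) was lower at an unadjusted p under 0.05. Of the 16, 1 was detected on no GDF15 array and 2 on no control array. Saa3, the serum amyloid A of fibroblasts and macrophages, read 13.99, 14.20, 13.87 and 13.92 on GDF15 arrays and 10.66, 10.54, 10.43 and 10.70 on control arrays, and rose by 3.41 ± 0.09 (10.7-fold, adjusted p = 1.3e-13). Lcn2, which withholds iron from bacteria, read 11.15, 12.11, 10.96 and 10.90 on GDF15 arrays and 8.07, 7.74, 7.43 and 7.67 on control arrays, with array 10 highest (difference 3.55 ± 0.20, adjusted p = 1.7e-09). Slpi, an inhibitor of neutrophil proteases, read 8.24, 8.33, 8.15 and 8.11 on GDF15 arrays and 4.38, 4.53, 4.44 and 4.63 on control arrays, of which 1 detected it. The groups were far apart, with a difference of 3.71 ± 0.09 (adjusted p = 3.4e-14). Hp, haptoglobin, which binds free haemoglobin, read 12.07, 12.07, 12.10 and 11.51 on GDF15 arrays and 9.61, 9.15, 9.13 and 9.00 on control arrays, a rise of 2.71 ± 0.15 (adjusted p = 1.3e-09). S100a8, an alarmin of neutrophils and monocytes, read 8.61, 8.80, 8.59 and 8.63 on GDF15 arrays and 5.42, 5.40, 5.40 and 5.39 on control arrays, a rise of 3.25 ± 0.08 (adjusted p = 3.4e-14). Complement factor B, Cfb, rose by 2.63 ± 0.16 (adjusted p = 3.8e-09).

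Csta2, a stefin, which is an inhibitor of cysteine proteases, had the largest fitted difference, which is no exact rise because its control level is below detection. It read 8.52, 9.24, 8.00 and 8.35 on GDF15 arrays and 4.35, 4.16, 4.23 and 4.23 on control arrays, none of which detected it, so it was at least 15.9-fold higher in GDF15 cells (adjusted p = 3.7e-11). Its relative Cstdc4 read 8.20, 8.68, 7.83 and 7.73 on GDF15 arrays and 4.18, 4.24, 4.22 and 4.22 on control arrays, again with no control array detecting it, and was at least 11.9-fold higher. Both genes passed the detection filter only through arrays of treated cells, so their calls are descriptions. Stefin A genes are near-identical copies, so which copy each probe read is uncertain. Of 11 tested cystatin, serpin and small proline-rich (Sprr) genes, 3 rose and 0 fell by limma (4 rose and 0 fell at an unadjusted p under 0.05), and the median was 0.09. However, 5 of the 11 were detected on no GDF15 array and 8 on no control array. The median therefore draws partly on readings below detection. Selp, the adhesion molecule P-selectin that platelets and endothelium display, read 9.85, 9.93, 10.03 and 9.45 on GDF15 arrays and 7.11, 6.76, 7.30 and 7.12 on control arrays, a rise of 2.75 ± 0.16 (adjusted p = 2.8e-09).

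Receptors for microbial products rose in part. Of 18 tested genes for endotoxin and pattern sensing, 10 rose and 1 fell, with a median of 0.46. Fpr2, a receptor for formylated peptides and serum amyloid A, read 8.08, 8.39, 8.09 and 7.82 on GDF15 arrays and 4.84, 4.87, 4.93 and 5.01 on control arrays, a rise of 3.18 ± 0.11 (adjusted p = 4.0e-12). Clec4n (dectin-2), a lectin receptor for fungal sugars, rose by 2.21 ± 0.08 (adjusted p = 7.4e-12), and Lbp, which hands endotoxin to its receptor, rose by 1.90 ± 0.10 (adjusted p = 9.3e-10). The endotoxin receptor genes Tlr4 and Cd14 did not pass the test. Tlr4 read 8.14, 8.04, 8.19 and 8.11 on GDF15 arrays and 8.21, 8.00, 8.27 and 8.03 on control arrays, and Cd14 9.70, 9.82, 9.64 and 9.63 on GDF15 arrays and 9.81, 9.85, 9.88 and 9.74 on control arrays, and both pairs of groups overlapped. Tlr1 was the member that fell, by 0.34 ± 0.11, a call lost without any 1 of GDF15 arrays 9, 10 and 11 and control arrays 1, 2 and 4 (adjusted p 0.0694 to 0.113).

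Genes that interferons switch on formed a second broad rise. Of 29 tested members 23 rose and 0 fell by limma (24 rose and 0 fell at an unadjusted p under 0.05), with a median of 0.81. Of the 29, 1 was detected on no GDF15 array and 3 on no control array. Irf7, the transcription factor that amplifies interferon production, read 8.64, 8.35, 8.31 and 8.52 on GDF15 arrays and 6.06, 6.01, 6.23 and 6.20 on control arrays, a rise of 2.33 ± 0.11 (adjusted p = 1.3e-10). Isg15, a ubiquitin-like protein, read 9.90, 9.77, 10.02 and 9.74 on GDF15 arrays and 7.94, 7.95, 7.76 and 7.93 on control arrays, a rise of 1.96 ± 0.11 (adjusted p = 1.3e-09). The groups of both genes were well apart. Zbp1, a sensor of Z-form nucleic acid, rose by 2.24 ± 0.10 (adjusted p = 1.5e-10), the GTPase gene Gbp3 by 1.84 ± 0.10 (adjusted p = 9.2e-10) and Oas2, which makes 2-5A in answer to viral RNA, by 1.77 ± 0.13 (adjusted p = 2.5e-08). Irf1, at 0.14 ± 0.08, and Cxcl9, which was detected on no GDF15 and no control array, did not pass.

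The same letters were counted in the promoters of the interferon genes that rose. Of 20 promoters of 18 such genes, 11 (55.0%) held GAAANNGAA, against 6.97% of the promoters of all genes tested and 8.56% of all promoters, while 20.0% held the NF-kB consensus. This list was written from known interferon targets, so the share describes the list and not the effect of GDF15. Among the NF-kB genes that rose, 8.0% of promoters held GAAANNGAA. The STAT motif stood in 20.0% of the interferon, 4.0% of the NF-kB and 10.0% of the acute phase promoters. Its share was 7.07% in the promoters of all genes tested. The promoter of Isg15 (chr4:156200769-156201068, minus strand) is shown because 3 overlapping copies of the motif, in capitals, begin at positions -78, -72 and -66. Over all genes that rose by at least 2-fold, 20.0% of 140 promoters held the NF-kB consensus and 22.1% held GAAANNGAA.
Isg15: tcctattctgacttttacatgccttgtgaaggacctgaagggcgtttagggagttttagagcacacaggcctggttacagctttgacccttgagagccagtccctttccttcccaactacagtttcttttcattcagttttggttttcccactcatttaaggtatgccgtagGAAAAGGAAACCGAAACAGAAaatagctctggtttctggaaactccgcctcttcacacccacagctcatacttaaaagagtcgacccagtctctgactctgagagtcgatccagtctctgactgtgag

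Of 17 tested antigen presentation genes 8 rose and 2 fell, with a median of 0.35. The 8 were H2-M2, H2-Q7, H2-K1, H2-T23, H2-D1, B2m, Tapbp and Nlrc5, which are class I chains or genes that help class I. H2-M2 read 7.68, 7.92, 7.33 and 7.49 on GDF15 arrays and 4.40, 4.80, 4.94 and 4.39 on control arrays, 2 of which detected it (difference 2.97 ± 0.15, adjusted p = 3.4e-10). H2-K1, a classical class I heavy chain, rose by 1.18 ± 0.14 (adjusted p = 9.7e-06), and class I genes are close copies whose probes may cross-read. The class II chain H2-Aa read 4.58, 4.59, 4.63 and 4.76 on GDF15 arrays and 4.95, 5.29, 5.27 and 5.39 on control arrays and fell by 0.58 ± 0.10 (adjusted p = 2.8e-04). Cd74, the invariant chain of class II, fell by 0.52 ± 0.16, a call lost without any 1 of GDF15 arrays 10 and 12 and control arrays 2 and 3 (adjusted p 0.0576 to 0.1). The other class II genes tested, H2-Ab1, H2-Eb1, H2-DMa and H2-DMb1, did not pass, at 0.10, -0.18, 0.03 and -0.19.

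**Figure D2:**
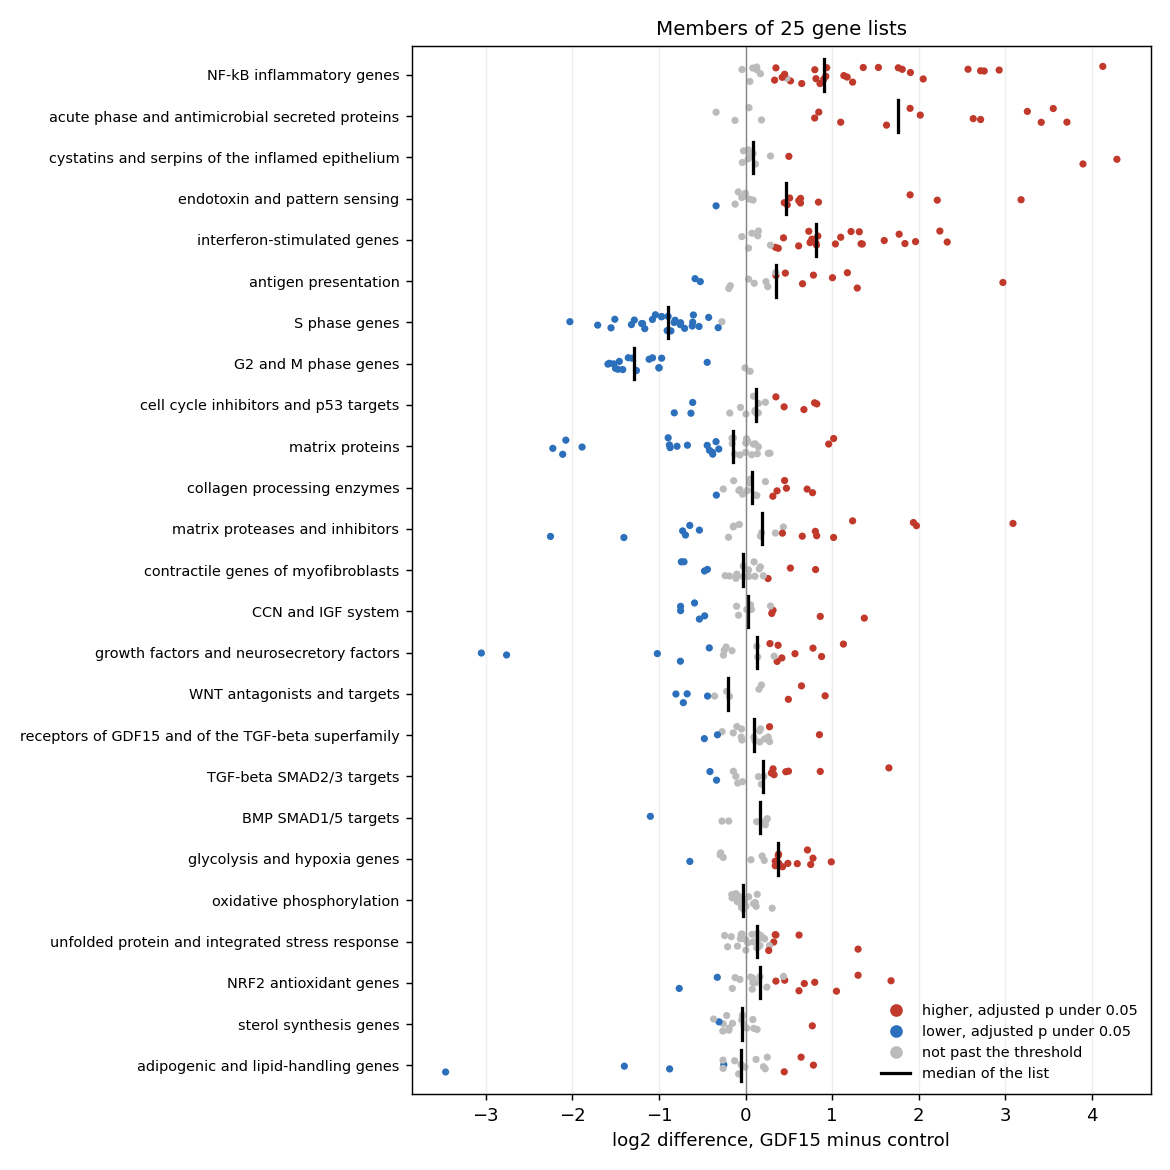
Log2 difference, GDF15 minus control, of each tested member of 25 gene lists, with the list's median as a black bar. The members of the NF-kB, acute phase and interferon lists lie mostly to the right, with medians of 0.90, 1.76 and 0.81, those of the S phase and G2/M lists to the left, with medians of -0.90 and -1.29, and the medians of the other lists run from -0.20 to 0.46.

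The cultures carried transcripts of cells other than fibroblasts, and some of these moved with the treatment. Each of the 18 fibroblast markers was detected in both groups. Of these 6 fell, led by Gsn (-1.57 ± 0.10, with a second probe at -0.05) and Dpt (-1.30 ± 0.11), 0 rose (1 was higher at an unadjusted p under 0.05), and their median was 0.01. The matrix genes Col1a1 and Col3a1, the receptor gene Pdgfra and the transcription factor gene Tcf21 did not pass, at 0.02 ± 0.11, -0.16 ± 0.14, 0.24 ± 0.09 and 0.03 ± 0.10. The summed linear intensity of the fibroblast markers was 70940 to 80490 on GDF15 arrays and 78020 to 82240 on control arrays.

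Resident macrophage markers fell as a rule. Of 24 tested, all detected in both groups, 15 fell and 1 rose, with a median of -0.49. Fcrls, a receptor-like gene of resident macrophages and microglia, read 6.89, 6.54, 6.81 and 6.56 on GDF15 arrays and 10.11, 10.00, 10.19 and 10.14 on control arrays, a difference of -3.41 ± 0.09 (adjusted p = 1.5e-13). Vsig4, a complement receptor, read 5.93, 5.41, 5.76 and 6.00 on GDF15 arrays and 8.50, 8.36, 8.28 and 8.33 on control arrays, and Cx3cr1, the fractalkine receptor, 4.56, 4.67, 4.52 and 4.78 on GDF15 arrays, of which 2 detected it, and 6.52, 6.38, 6.96 and 6.85 on control arrays. Neither pair of groups overlapped, and the differences were -2.59 ± 0.11 and -2.04 ± 0.13 (adjusted p = 5.0e-11 and 3.8e-09). The 3 chains of complement C1q fell together, C1qa by 1.20 ± 0.10, C1qb by 1.35 ± 0.08 and C1qc by 1.65 ± 0.10.

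The general macrophage markers Adgre1, Lyz2 (lysozyme), Ptprc (CD45) and Cd14 did not pass the test, at 0.28 ± 0.10, 0.09 ± 0.09, -0.27 ± 0.17 and -0.12 ± 0.08. Lyz2 read 14.37, 14.29, 14.23 and 14.22 on GDF15 arrays and 14.34, 14.04, 14.14 and 14.23 on control arrays, with the groups overlapping. Csf1r, the receptor that macrophages need to survive, read 8.52, 8.59, 8.47 and 9.10 on GDF15 arrays and 9.25, 9.49, 9.57 and 9.46 on control arrays and fell by 0.77 ± 0.12 (adjusted p = 2.2e-04). Itgam (CD11b) was the marker that rose, by 0.80 ± 0.11 (adjusted p = 5.8e-05). The summed linear intensity of the 24 markers was 43300 to 46450 on GDF15 arrays and 54730 to 57530 on control arrays. In RNA of a whole culture, fewer cells of a type and less RNA per cell cannot be told apart.

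Of 7 tested monocyte and neutrophil markers 5 rose and 0 fell by limma (6 rose and 0 fell at an unadjusted p under 0.05), but of the 5 only Plac8 is on no other list. S100a8 and Camp are also on the antimicrobial list, Clec4d on that for pattern sensing and Itgam on that for resident macrophages. Plac8 read 10.77, 10.91, 10.72 and 10.98 on GDF15 arrays and 8.98, 8.63, 8.57 and 8.64 on control arrays, a rise of 2.14 ± 0.10 (adjusted p = 2.0e-10), and Camp, the cathelicidin precursor, rose by 2.02 ± 0.15 (adjusted p = 4.8e-08). Their summed linear intensity was 4201 to 4952 on GDF15 arrays and 1714 to 2011 on control arrays. Another 8 of these markers that the array names, among them Ccr2, Elane, Cxcr2 and Retnlg, were detected on fewer than 4 of the 12 arrays. These macrophage and myeloid levels moved in the same arrays as the NF-kB, acute phase, pattern sensing and interferon genes above, and their part in those results was not tested.

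**Figure D3:**
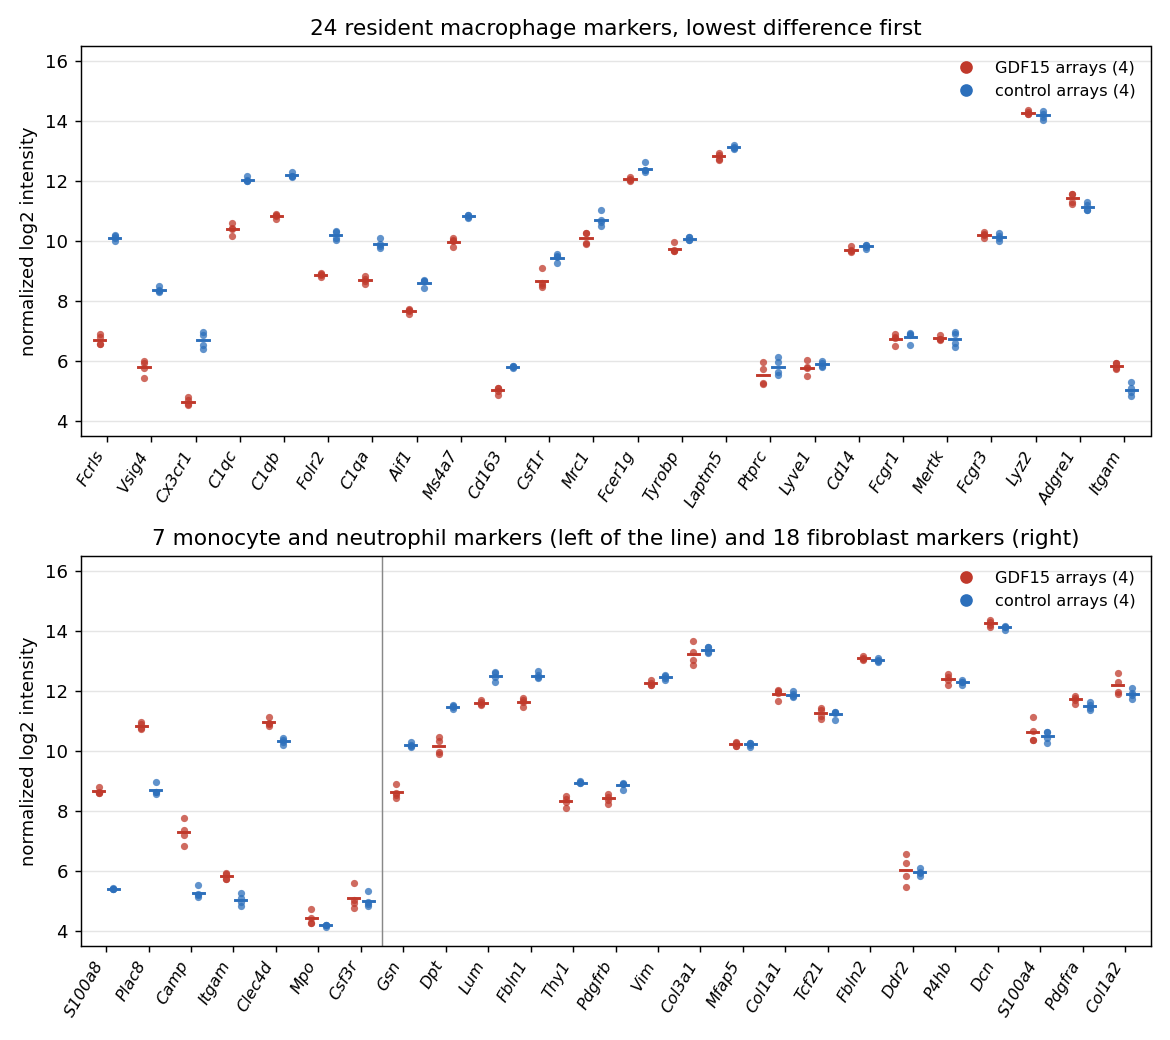
Normalized log2 intensity on each GDF15 array (red, left of each pair) and each control array (blue, right), with a bar at the mean of 4 arrays, for 24 resident macrophage markers (top) and for 7 monocyte and neutrophil and 18 fibroblast markers (bottom). Fcrls, Vsig4, Cx3cr1 and the C1q chains are lower on all 4 GDF15 arrays, while Lyz2 and Cd14 overlap. S100a8, Plac8 and Camp are higher on all 4 GDF15 arrays.

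Markers of the remaining cell types were counted in the same way. Of 16 tested endothelial markers 1 fell (Cldn5, at -0.46 ± 0.11) and 0 rose, with 2 higher and 3 lower at an unadjusted p under 0.05. Of 14 pericyte and smooth muscle markers 6 fell and 1 rose, with a median of -0.27, but 3 fell without GDF15 array 10 or without control array 3 or 4. Notch3, a receptor of pericytes, fell by 0.74 ± 0.09 (adjusted p = 1.5e-05). Of 10 epicardial and mesothelial markers 2 rose and 0 fell by limma (3 and 1 at an unadjusted p under 0.05). Aldh1a2, which makes retinoic acid in the epicardium, rose by 0.98 ± 0.11 (adjusted p = 4.3e-06). Of 6 cardiomyocyte, 4 Schwann cell and 1 erythroid markers tested, 0 passed by limma, and 2, 2 and 0 of them were lower at an unadjusted p under 0.05. Myl2, a ventricular light chain, differed by -0.48 ± 0.21 (adjusted p = 0.132), and Nppa, atrial natriuretic peptide, by -0.33 ± 0.12 (adjusted p = 0.061). Nppa passed as lower by limma without control array 1 (adjusted p = 0.0192) and under 4 other alternatives, and Myl2 under 2. Of the 2 lymphocyte markers tested, Cd79b fell by 0.42 ± 0.09, and 1 GDF15 array detected it.

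Genes of DNA replication and cell division fell almost without exception. Of 28 tested S phase genes 27 fell, 11 of them by at least 2-fold, and 0 rose, with a median of -0.90. Ccne1, the remaining member, differed by -0.27 ± 0.11 (adjusted p = 0.105) and was lower at an unadjusted p under 0.05. Of 18 tested G2 and M phase genes 16 fell, 12 of them by at least 2-fold, and 0 rose, also at an unadjusted p under 0.05, with a median of -1.29. Counts of falls were 25 to 28 and 15 to 17 under the alternatives tried.

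Tk1, thymidine kinase of S phase, read 6.11, 5.89, 5.84 and 6.26 on GDF15 arrays and 8.19, 8.11, 7.82 and 8.08 on control arrays, a difference of -2.03 ± 0.12 (4.08-fold, adjusted p = 3.5e-09). The helicase genes Mcm2 to Mcm7, which license replication origins, all fell, by 0.86 to 1.71. Mcm5 read 7.15, 6.97, 7.08 and 6.77 on GDF15 arrays and 8.67, 8.67, 8.76 and 8.70 on control arrays (difference -1.71 ± 0.10, adjusted p = 2.1e-09). The 2 groups of each of these genes lay clearly apart. Uhrf1, which keeps DNA methylation through replication, fell by 1.51 ± 0.10 (adjusted p = 7.7e-09), Mcm10 by 1.55 ± 0.11 and Rrm2, the ribonucleotide reductase subunit, by 1.32 ± 0.14 (adjusted p = 1.8e-08 and 3.4e-06). Lig1, the ligase that joins replicated strands, fell by 1.20 ± 0.09 (adjusted p = 2.6e-08).

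Among the mitotic genes, Nusap1, a spindle protein, read 6.57, 6.66, 6.61 and 6.53 on GDF15 arrays and 8.17, 8.10, 8.31 and 8.15 on control arrays, a difference of -1.59 ± 0.09 (adjusted p = 2.6e-09). Cdk1, the kinase that starts mitosis, read 6.75, 6.88, 6.90 and 6.84 on GDF15 arrays and 8.21, 8.28, 8.40 and 8.16 on control arrays, a difference of -1.42 ± 0.10 (adjusted p = 2.4e-08). Cenpa, the centromere histone, read 8.19, 8.12, 8.38 and 8.09 on GDF15 arrays and 9.58, 9.77, 9.86 and 9.85 on control arrays, a difference of -1.57 ± 0.11 (adjusted p = 1.1e-08). In all 3 genes every GDF15 array lay below every control array. Cdca3, which helps mitotic entry, and Prc1, which bundles midzone microtubules, fell by 1.52 ± 0.09 and 1.47 ± 0.10. Cenpf and Kif23 did not pass, at -0.01 ± 0.12 and 0.05 ± 0.12.

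**Figure D4:**
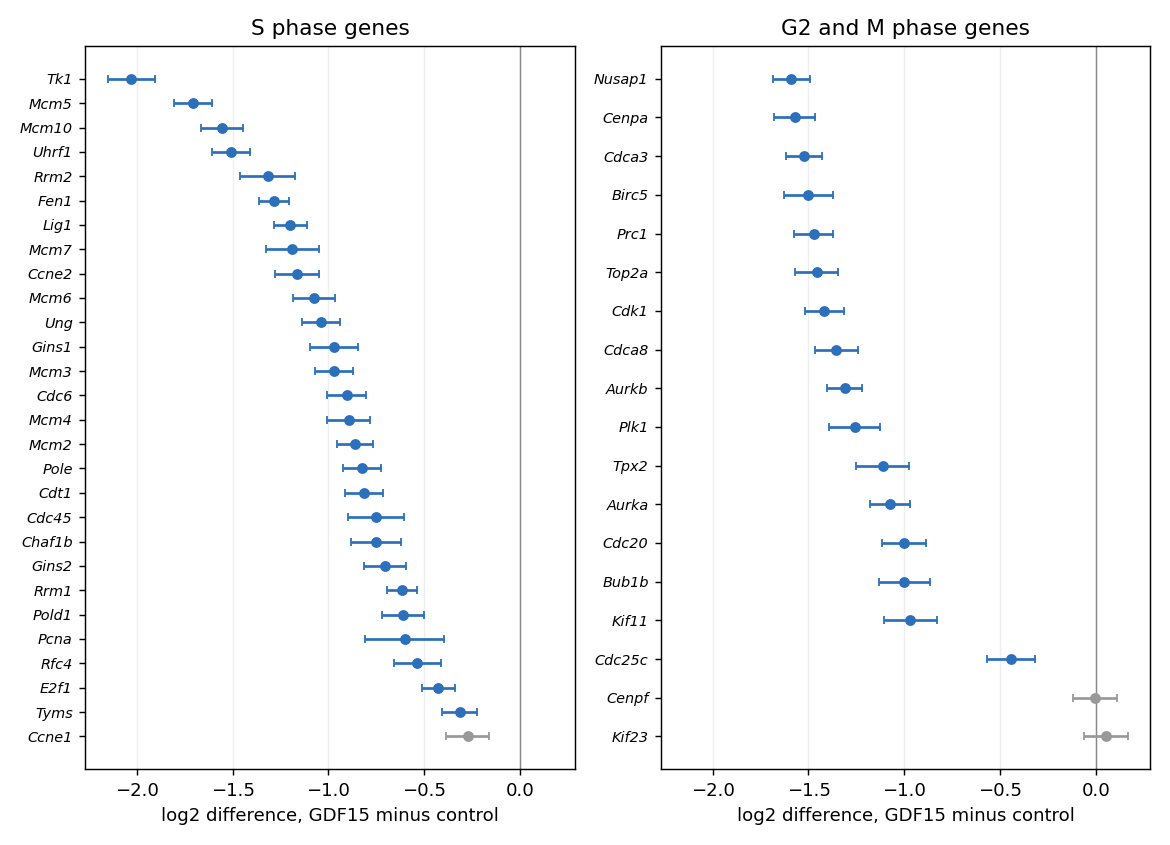
Log2 difference, GDF15 minus control, with its SE for the 28 tested S phase genes (left) and the 18 tested G2 and M phase genes (right), blue where the fall passed an adjusted p of 0.05 and grey where the difference did not pass. The points run from -2.03 (Tk1) to -0.27 (Ccne1) on the left and from -1.59 (Nusap1) to 0.05 (Kif23) on the right.

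The promoters of the falling genes were read for the same motifs. Of 14 promoters of 13 G2 and M phase genes that fell, 12 (85.7%) held the cell cycle homology motif TTTGAA, against 11.9% of the promoters of all genes tested and 17.9% of all promoters. Of 27 promoters of 22 S phase genes that fell, 7 (25.9%) held TTTCCCGC or TTTGGCGC, against 2.60% and 1.57%. Both lists were written from known cell cycle genes, so these shares describe the lists and not the effect of GDF15. None of the 25 promoters of the NF-kB genes that rose held TTTGAA or an E2F motif. Over all genes that fell by at least 2-fold, 31.5% of 143 promoters held TTTGAA and 6.29% an E2F motif. The promoter of Mcm6 (chr1:128359656-128359955, minus strand), a gene that fell by 1.08 ± 0.11, is shown for its pair of TTTGGCGC letters, at positions -110 and -47. Those of Cdk1 (chr10:69352863-69353162, minus strand) and Cenpa (chr5:30666636-30666935, plus strand) are shown for TTTGAA, which begins at positions -71 and -15 in Cdk1 and at position 17, past the start, in Cenpa, all in capitals.
Mcm6: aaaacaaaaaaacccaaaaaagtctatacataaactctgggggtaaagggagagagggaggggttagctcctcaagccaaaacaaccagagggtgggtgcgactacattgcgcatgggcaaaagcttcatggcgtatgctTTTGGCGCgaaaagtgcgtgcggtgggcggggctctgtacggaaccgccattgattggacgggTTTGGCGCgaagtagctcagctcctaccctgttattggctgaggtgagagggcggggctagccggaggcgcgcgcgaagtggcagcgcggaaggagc
Cdk1: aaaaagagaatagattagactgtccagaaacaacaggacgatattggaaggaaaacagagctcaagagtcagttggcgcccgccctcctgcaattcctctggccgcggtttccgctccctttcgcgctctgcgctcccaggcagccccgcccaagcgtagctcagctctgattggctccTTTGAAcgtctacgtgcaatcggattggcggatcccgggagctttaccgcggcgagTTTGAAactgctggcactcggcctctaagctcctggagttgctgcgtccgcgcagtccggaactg
Cenpa: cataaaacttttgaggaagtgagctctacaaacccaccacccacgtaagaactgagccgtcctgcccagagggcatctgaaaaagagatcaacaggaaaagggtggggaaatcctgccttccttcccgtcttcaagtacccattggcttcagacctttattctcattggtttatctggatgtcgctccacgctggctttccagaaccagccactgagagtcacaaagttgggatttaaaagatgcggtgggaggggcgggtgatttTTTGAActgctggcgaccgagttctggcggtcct

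Inhibitors of the cell cycle and targets of p53 did not move as a group. Of 18 tested, 5 rose and 3 fell, with a median of 0.12. Cdkn2b (p15), an inhibitor of the G1 kinases that TGF-beta is known to induce, read 8.86, 9.02, 8.74 and 8.95 on GDF15 arrays and 8.30, 8.25, 8.20 and 8.12 on control arrays, a rise of 0.67 ± 0.09 (adjusted p = 1.8e-05). Its relative Cdkn2c (p18) fell by 0.61 ± 0.09 (adjusted p = 5.3e-05), and Cdkn1a (p21) did not pass, at 0.11 ± 0.09. Of the p53 targets, the kinase gene Plk2 rose by 0.82 ± 0.09 and the death receptor gene Fas by 0.80 ± 0.08, while the stress protein genes Sesn1 and Trp53inp1 fell by 0.82 ± 0.11 and 0.63 ± 0.10. Of 4 tested Fas probes, 3 rose and the dimmest did not pass.

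The matrix did not move as a whole either. Of 35 tested matrix protein genes 15 fell and 2 rose, with a median of -0.14. The main fibrillar collagen gene Col1a1 read 11.99, 11.67, 12.03 and 11.94 on GDF15 arrays and 12.01, 11.89, 11.83 and 11.81 on control arrays, with the groups overlapping (adjusted p = 0.921), and Postn, periostin of activated fibroblasts, read 5.79, 5.71, 5.69 and 6.15 on GDF15 arrays and 5.35, 5.90, 5.75 and 5.73 on control arrays, also overlapping (adjusted p = 0.491). Neither passed the test, nor did Fn1, fibronectin, at -0.14 ± 0.13.

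Among the matrix genes that fell, Eln, elastin, read 8.60, 8.57, 8.73 and 8.76 on GDF15 arrays and 10.33, 10.57, 10.76 and 10.56 on control arrays, a difference of -1.89 ± 0.10 (adjusted p = 9.2e-10). Comp, which helps collagen fibrils assemble, read 8.13, 7.91, 8.33 and 8.04 on GDF15 arrays and 10.11, 10.29, 10.06 and 10.24 on control arrays, a difference of -2.08 ± 0.09 (adjusted p = 1.0e-10). Matn4, a matrilin that links matrix fibres, fell by 2.23 ± 0.14, and Cthrc1, a secreted protein of fibroblasts in healing tissue, by 2.11 ± 0.12 (adjusted p = 4.2e-09 and 1.0e-09). Outside the list, the network-forming collagen gene Col8a2 read 4.56, 4.37, 4.72 and 4.80 on GDF15 arrays, of which 2 detected it, and 6.52, 6.61, 6.35 and 6.60 on control arrays (difference -1.91 ± 0.10, adjusted p = 5.7e-10). The small proteoglycan gene Lum fell by 0.89 ± 0.10. The 2 list members that rose were Vcan, a hyaluronan-binding proteoglycan of inflamed matrix, by 1.02 ± 0.13, and Thbs1, which can activate TGF-beta, by 0.96 ± 0.08 (adjusted p = 2.0e-05 and 2.9e-07). Of 4 tested Vcan probes, the 2 brightest rose.

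Enzymes that modify and crosslink collagen gave a few rises. Of 18 tested collagen processing genes 6 rose and 1 fell, with a median of 0.08. Lox, the lysyl oxidase that crosslinks collagen and elastin, read 12.52, 12.52, 12.54 and 12.55 on GDF15 arrays and 11.80, 11.81, 11.72 and 11.70 on control arrays, a rise of 0.77 ± 0.07 (adjusted p = 6.0e-07), and the prolyl hydroxylase gene P4ha2 rose by 0.71 ± 0.09 (adjusted p = 1.2e-05). Plod2, a lysyl hydroxylase gene, fell by 0.34 ± 0.10, a call lost without any 1 of GDF15 arrays 10 and 12 and control arrays 1, 2 and 3 (adjusted p 0.052 to 0.0895).

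Of 23 tested matrix proteases and inhibitors 9 rose and 6 fell, with a median of 0.19. Mmp9, a gelatinase of inflammatory cells, read 8.04, 8.31, 7.91 and 7.75 on GDF15 arrays and 4.89, 4.78, 4.71 and 5.27 on control arrays, a rise of 3.09 ± 0.13 (adjusted p = 3.7e-11). Mmp13, a collagenase, read 10.07, 10.27, 10.18 and 9.78 on GDF15 arrays and 8.00, 8.19, 8.20 and 8.14 on control arrays, and Timp1, the inducible inhibitor of such enzymes, 13.33, 13.66, 13.36 and 13.17 on GDF15 arrays and 11.48, 11.36, 11.45 and 11.34 on control arrays. The rises of both left a wide gap between the groups, at 1.94 ± 0.10 and 1.97 ± 0.11 (adjusted p = 9.3e-10 and 9.3e-10). The falls were in Timp3, Htra1 (-0.53 ± 0.10), Mmp2, the gelatinase that fibroblasts make without stimulation (-0.69 ± 0.08), Mmp11 (-1.40 ± 0.09), the inhibitor gene Timp2 (-0.73 ± 0.08) and the serine protease gene Htra3. Htra3 read 8.77, 8.60, 8.65 and 9.14 on GDF15 arrays and 10.99, 11.13, 11.10 and 10.94 on control arrays, a difference of -2.25 ± 0.12 (adjusted p = 7.9e-10). Timp3 fell by 0.64 ± 0.10 on its brightest probe, but with the mean of its 3 probes the difference was -0.17 (adjusted p = 0.169).

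Contractile genes of myofibroblasts gave 3 rises and 4 falls among 21 tested, with a median of -0.03, and 1 rise without control array 1 or 2. The shares of 14.29% and 19.05% were not far from the 9.76% and 12.7% of all genes tested. Acta2, the smooth muscle actin by which myofibroblasts are known, read 13.94, 13.96, 14.15 and 14.06 on GDF15 arrays and 14.01, 13.86, 14.07 and 14.01 on control arrays, with the groups overlapping (adjusted p = 0.808). Tagln (SM22), an actin-binding protein, rose by 0.52 ± 0.09 (adjusted p = 3.7e-04). The myosin kinase gene Mylk and the smooth muscle myosin gene Myh11 fell by 0.71 ± 0.09 and 0.74 ± 0.13 (adjusted p = 2.1e-05 and 3.9e-04).

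Secreted regulators held some of the largest falls. Of 20 tested growth and neurosecretory factors 8 rose and 5 fell, with a median of 0.14. Ptn, pleiotrophin, a heparin-binding growth factor, read 8.93, 8.80, 8.90 and 8.47 on GDF15 arrays and 11.79, 11.81, 11.96 and 11.74 on control arrays, a difference of -3.05 ± 0.10 (8.28-fold, adjusted p = 1.9e-12). Scg2, a precursor of neuropeptides, read 5.48, 5.23, 5.57 and 5.14 on GDF15 arrays and 7.97, 8.21, 8.27 and 8.01 on control arrays, a difference of -2.76 ± 0.11 (adjusted p = 1.6e-11). Mdk (midkine), the relative of Ptn, fell by 0.75 ± 0.10 (adjusted p = 2.2e-05), and its dimmest probe did not pass. The neurotrophin gene Bdnf read 10.01, 9.95, 10.00 and 9.91 on GDF15 arrays and 8.78, 8.73, 9.05 and 8.79 on control arrays, a rise of 1.13 ± 0.10 (adjusted p = 2.8e-07), and Gdnf, the ligand of the RET co-receptor Gfra1, rose by 0.88 ± 0.11 (adjusted p = 2.0e-05).

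Of 16 tested genes of the CCN and insulin-like growth factor systems 4 rose and 5 fell, with a median of 0.03. Ccn4 (WISP1), a WNT-induced matricellular protein, read 9.80, 9.66, 9.74 and 9.42 on GDF15 arrays and 8.41, 8.22, 8.33 and 8.18 on control arrays, a rise of 1.37 ± 0.10 (adjusted p = 3.2e-08), and Ccn1 rose by 0.86 ± 0.10 (adjusted p = 1.1e-05). Ccn2 read 14.20, 14.02, 14.09 and 14.21 on GDF15 arrays and 13.78, 13.89, 13.87 and 13.72 on control arrays, without overlap. Its rise of 0.32 ± 0.08 passed on the brighter probe (adjusted p = 0.013), while the second probe differed by 0.09 and the mean of both by 0.20 (adjusted p = 0.0509). The growth factor gene Igf2 and the binding protein gene Igfbp4 fell by 0.75 ± 0.11 and 0.75 ± 0.11 (adjusted p = 8.2e-05 and 1.2e-04).

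Targets of TGF-beta signalling gave 7 rises and 2 falls among 16 tested genes, with a median of 0.20. Inhba, the activin A subunit, read 9.96, 9.64, 9.89 and 9.73 on GDF15 arrays and 7.99, 7.88, 8.31 and 8.43 on control arrays, a rise of 1.66 ± 0.14 (adjusted p = 2.6e-07). Skil, a feedback inhibitor of SMAD proteins, rose by 0.50 ± 0.09 (adjusted p = 6.6e-04). The falls, of Tgfb3 (-0.41 ± 0.13) and the collagen receptor gene Itga11 (-0.34 ± 0.10), were lost without GDF15 array 10 or 12 or control array 1, and that of Tgfb3 also without GDF15 array 9 or control array 2 or 4 (adjusted p 0.0503 to 0.0933 for Tgfb3, whose groups overlapped, and 0.057 to 0.0721 for Itga11). The mean of the 3 Itga11 probes differed by -0.12 (adjusted p = 0.332). Of 8 tested targets of bone morphogenetic proteins 1 fell and 0 rose by limma (2 and 1 at an unadjusted p under 0.05). Hey1, a target shared with Notch, read 6.61, 6.16, 6.43 and 6.33 on GDF15 arrays and 7.58, 7.27, 7.66 and 7.41 on control arrays, a difference of -1.10 ± 0.11 (adjusted p = 1.8e-06).

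Of 12 tested WNT antagonists and targets 3 rose and 4 fell, with a median of -0.20. The secreted antagonist genes Sfrp1, Sfrp2 and Dkk3 fell by 0.80 ± 0.08, 0.72 ± 0.14 and 0.67 ± 0.08. A second Sfrp1 probe, at -0.36, did not pass. Frzb, another secreted antagonist, rose by 0.65 ± 0.10, as did Nkd2, an inhibitor inside the cell, by 0.92 ± 0.11. Axin2, the usual readout of WNT signalling through beta-catenin, did not pass, at -0.19 ± 0.12.

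Of 19 tested glycolysis and hypoxia genes 12 rose and 1 fell, with a median of 0.38. Slc2a1 (GLUT1), a glucose transporter, read 9.36, 9.41, 9.25 and 8.99 on GDF15 arrays and 8.59, 8.52, 8.58 and 8.30 on control arrays, a rise of 0.75 ± 0.10 (adjusted p = 3.3e-05). Vegfa rose by 0.78 ± 0.08 and Egln3, a hypoxia-induced prolyl hydroxylase gene, by 0.99 ± 0.12 on its brightest probe (another did not pass), whereas Ndrg1, also known as hypoxia-induced, fell by 0.64 ± 0.08. Of 20 tested genes of oxidative phosphorylation 0 passed by limma, and 0 had an unadjusted p under 0.05. The count was 0 under each alternative tried too. The member farthest from 0 was Sdhd, at 0.31 ± 0.17.

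Among 21 tested NRF2 and antioxidant genes 8 rose and 2 fell, with a median of 0.17. Sod2, the mitochondrial superoxide dismutase that NF-kB also induces, read 12.48, 12.54, 12.30 and 12.28 on GDF15 arrays and 10.80, 10.72, 10.53 and 10.84 on control arrays, a rise of 1.68 ± 0.09 (adjusted p = 1.0e-09). Haem oxygenase, Hmox1, rose by 0.80 ± 0.09, and the cystine importer gene Slc7a11 by 1.30 ± 0.10 on its brightest probe, with 2 of its 4 probes not passing. Gpx3, the secreted glutathione peroxidase, fell by 0.77 ± 0.11. Nqo1, a standard NRF2 target, did not pass, at -0.06 ± 0.13. Of 30 tested genes for the integrated stress and unfolded protein responses 6 rose and 0 fell by limma (9 and 2 at an unadjusted p under 0.05). Only 2 rose without control array 1 and 3 without control array 4. Ddit4, a brake on mTOR, rose by 0.62 ± 0.08 (adjusted p = 1.5e-05).

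Calls among lipid genes went in both directions. Of 17 tested adipogenic and lipid-handling genes 3 rose and 4 fell, with a median of -0.05. These shares were 17.65% and 23.53%, beside 9.76% and 12.7% of all genes tested. Of 17 sterol synthesis genes 1 rose and 1 fell (5.88% each), with a median of -0.04. The sterol gene that rose, Insig1, lost its call under 7 alternatives. The mean of its probes differed by 0.11 (limma adjusted p = 0.4065). Ebp, which fell, lost its call under 5. Inmt, a member of the first list that encodes an indolethylamine methyltransferase, read 4.22, 4.32, 4.32 and 4.42 on GDF15 arrays, none of which detected it, and 7.61, 7.81, 7.84 and 7.88 on control arrays, so it was at least 9.38-fold lower in GDF15 cells (adjusted p = 3.4e-14). Inmt passed the detection filter only through arrays of the other groups. Apoe, the apolipoprotein that macrophages also secrete, read 10.10, 10.00, 9.98 and 10.17 on GDF15 arrays and 11.43, 11.57, 11.36 and 11.50 on control arrays, a difference of -1.40 ± 0.09 (adjusted p = 6.9e-09). Pparg, the regulator of adipocyte genes, fell by 0.88 ± 0.09, and the inflammatory C/EBP genes Cebpb and Cebpd rose by 0.78 ± 0.08 and 0.45 ± 0.09.

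Some other leading falls belonged to none of these lists. Fgl2, a prothrombinase that macrophages and T cells make, read 6.96, 7.06, 6.73 and 7.53 on GDF15 arrays and 9.37, 9.75, 9.57 and 9.85 on control arrays, a difference of -2.56 ± 0.16 (adjusted p = 5.4e-09). Slco2b1, an organic anion transporter gene, read 6.77, 6.54, 6.73 and 6.64 on GDF15 arrays and 8.89, 8.87, 8.99 and 8.89 on control arrays, a difference of -2.24 ± 0.09 (adjusted p = 2.2e-11). Sult1a1, a phenol sulfotransferase gene, fell by 1.94 ± 0.11 (adjusted p = 2.1e-09).

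The CCN2 arrays allowed a direct test of GDF15 against a second secreted protein. GDF15 and CCN2 cells differed in 5055 of 11018 genes, 45.9% of them. Predicted transcripts, RIKEN clones and Gm or LOC symbols were left out of the next count. It gave 355 genes, drawn from the 2471 that had passed against control before those symbols were left out. Each had risen after GDF15 and was higher than in CCN2 cells, or had fallen and was lower than in CCN2 cells. The 6 of these with the largest gap to CCN2 had all risen after GDF15 and were all below control in CCN2 cells. Since they were chosen by that gap, its size is a description. Both comparisons with control share the control arrays, so values are set side by side, per array for Gbx2, Il33 and Serpina3f.

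Gbx2, a homeobox transcription factor gene, read 8.30, 8.46, 8.46 and 8.07 on GDF15 arrays, 4.92, 4.84, 4.54 and 4.62 on CCN2 arrays and 6.33, 5.96, 6.16 and 5.64 on control arrays. It was highest in GDF15 cells and lowest in CCN2 cells, and GDF15 exceeded CCN2 by 3.59 ± 0.14 (adjusted p = 1.4e-12). Il33, an alarmin of the interleukin-1 family, read 9.56, 9.71, 9.32 and 9.60 on GDF15 arrays, 5.98, 6.18, 6.12 and 6.63 on CCN2 arrays and 8.61, 8.63, 8.49 and 8.55 on control arrays. It had the same order, with a gap of 3.32 ± 0.12 between GDF15 and CCN2 (adjusted p = 9.3e-13). Serpina3f, a serine protease inhibitor gene, read 9.04, 9.12, 9.07 and 8.90 on GDF15 arrays, 5.80, 5.89, 6.00 and 6.14 on CCN2 arrays and 6.99, 6.85, 6.79 and 6.74 on control arrays, a gap of 3.08 ± 0.09 (adjusted p = 9.5e-14). Col28a1, Gadd45g and Scel differed between GDF15 and CCN2 by 3.37 ± 0.11, 3.04 ± 0.08 and 2.98 ± 0.08, and after GDF15 they exceeded control by 0.63 ± 0.11, 0.69 ± 0.08 and 0.74 ± 0.08. The larger part of each of these gaps thus lay between control and CCN2. The same held for Il33, which exceeded control by 0.98 ± 0.12 after GDF15.

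**Figure D5:**
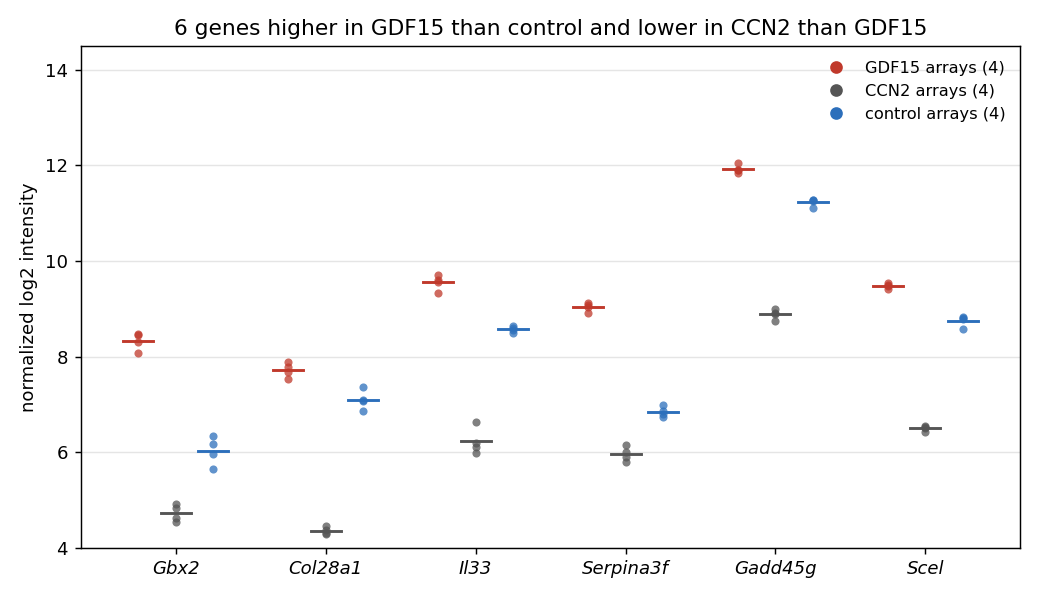
Normalized log2 intensity on each GDF15 (red), CCN2 (grey) and control array (blue), from left to right, with a bar at the mean of 4 arrays, for 6 genes that rose after GDF15, chosen by their gap to CCN2. In all 6 the GDF15 arrays are highest and the CCN2 arrays lowest, without overlap.

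The genes that are usually read as marks of a fibrotic fibroblast also separated the treatments. Ccn2 averaged 14.13 ± 0.09 on GDF15 arrays, 11.74 ± 0.11 on CCN2 arrays and 13.81 ± 0.08 on control arrays (SD, n = 4 each), and GDF15 exceeded CCN2 by 2.38 ± 0.08 (adjusted p = 6.1e-13). Acta2 averaged 14.03 ± 0.10 on GDF15 arrays, 12.56 ± 0.09 on CCN2 arrays and 13.99 ± 0.09 on control arrays, a difference of 1.47 ± 0.08 between GDF15 and CCN2 (adjusted p = 3.0e-10), and Postn differed by 1.11 ± 0.13 (adjusted p = 2.6e-06). Col1a1 did not differ by the test, at 0.16 ± 0.11 (adjusted p = 0.264). The tested Ret probes were detected on all 4 CCN2 arrays and on 0 GDF15 and 0 control arrays. They passed the detection filter only through the CCN2 arrays, so this contrast is a description. Another Ret probe was detected on 0 arrays of each group. The chemokine gene Cxcl2 was lower in GDF15 than in CCN2 cells, with a difference of -5.35 ± 0.15 (adjusted p = 3.3e-14).

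The lists were counted in the same test, beside the 45.9% of all genes that differed. Of 33 NF-kB genes, 32 were lower in GDF15 than in CCN2 cells and 1 was higher, and of 19 glycolysis and hypoxia genes all 19 were lower. Of the 33 NF-kB genes, 3 were detected on no GDF15 array and passed the detection filter only through the other arrays. Of 28 S phase genes 8 were higher and 2 lower in GDF15 than in CCN2 cells, and of 18 G2 and M phase genes 1 was higher and 2 lower. Of 24 resident macrophage markers 19 were higher and 2 lower in GDF15 cells, and of 35 matrix genes 21 were higher and 5 lower. The doses were not equal, at 500 nmol/L GDF15 and 200 nmol/L CCN2.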

How the data were processed

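RNA of 12 samples of mouse cardiac fibroblasts had been hybridised to Illumina bead arrays, 4 each for GDF15, CCN2 and control. The deposited table gave an average bead intensity and a detection p-value per probe, not normalized, per the file headers. The authors' processed intensities, also deposited, were used as an alternative. The submitters' processing notes name GenomeStudio 2010.1. Arrays were grouped by their titles. The number of arrays limits the precision.

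Intensities were background-corrected from the detection p-values and quantile-normalized (neqc, offset 16, limma 3.58.1, R 4.3.3). Probes with a detection p under 0.05 on at least 4 of 12 arrays were kept, and 24836 were left out. A limma model with a mean per group over all 12 arrays (9 residual degrees of freedom) gave moderated tests, with Benjamini-Hochberg adjustment over 20445 probes and a threshold of 0.05. Of all probes, 34885 had 1 gene symbol, 18 several and 10378 none. A gene was represented by its brightest probe, averaged across the 12 arrays. Of 4330 genes with several tested probes, 10 had probes called in both directions. Where no array of a group detected a gene, the fold is a lower bound against the dimmest detected level. Such a gene passed the detection filter only through the other arrays, so its call is a description. Summed marker levels are sums of linear normalized intensity. The method was tested on simulated data.

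The members and gene lists were chosen with earlier results of these data known. Genes are named by a rule: the 15 largest rises and 15 largest falls without overlap, up to 5 called members of each list and any called against its majority (where none was called, up to 2), 6 genes always, and 6 genes changed by GDF15 that lay on that same side of CCN2 with the widest gap. Predicted transcripts, RIKEN clones and Gm or LOC symbols were passed over in choosing the largest rises and falls and the genes with the widest gap. Further list members are named to illustrate a list, and these were chosen after their values were seen. Alternatives were other normalizations, filters, variance models, a mean over probes, and leaving out each array.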

Additional observations from a re-analysis of the deposited data

Results flagged for a closer look

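In each group of 4 arrays, the gap between the most extreme array and its neighbour was divided by the range of the group. Of 338 groups of named genes, 15 had a ratio above Dixon's 95% critical value for groups of 4, and chance alone marks about 1 in 20. On GDF15 arrays, Hp was low on array 12 (ratio 0.954), at 11.51 against a mean of 12.08 on the others. Acod1 (0.859) and Cxcl2 (0.845) were high on array 10, and Rrm2 was high (0.860) and Mdk low (0.848) on array 11. In the control group, array 1 was low for Gadd45g (0.943), Mcm10 (0.855) and Vcan (0.854) and high for Plac8 (0.841). Control array 2 was low for Ret (0.930) and Bmp1 (0.852), and control array 3 was low for Lbp (0.861), Isg15 (0.857) and Scel (0.831). Control array 4 was high for C1qb (0.873). Apart from Ret, which did not pass the test, these genes passed with groups that did not overlap.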

How the results depend on the processing

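The 4088 probes changed by GDF15 became 3153 to 4113 when 1 array was left out, lowest without control array 1, and 3704 to 4452 over the other alternatives on probes. None of the results tried reversed its direction. Of 158 named genes that passed, 133 passed under every alternative in which they were tested. Of the other 25, 20 lost the call without 1 array or another. The stricter detection filter left 161 of the 169 named genes tested. Over the leave-one-out fits, 1261 of 1345 gene values kept their side of the threshold, 82 lost the call and 2 gained it. Median scaling changed the split to 1309 rises and 2483 falls, and moved the median of all probes to -0.052 from -0.005 (log2). The causes were not tested. No paired analysis was possible because the titles number the arrays 1 to 12 across the groups, so no number is shared. A probe near background has only a bound, so changes of dim genes are understated.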

Other observations

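Gene families, some of which share members with the lists, also held rises and falls. They were chosen after their values were seen, so their counts are descriptions. Of 17 tested CC chemokine genes 12 rose and 3 fell. Ccl3, which draws monocytes, read 10.86, 10.98, 10.54 and 10.62 on GDF15 arrays and 8.93, 8.83, 8.68 and 8.80 on control arrays, and rose by 1.94 ± 0.10 (limma adjusted p = 6.9e-10). Ccl8 and the eosinophil attractant gene Ccl11 rose by 1.58 ± 0.09 and 1.46 ± 0.13. The falls were in Ccl21a, Ccl21c and Ccl27a, and the first pair are near-identical copies whose probes may cross-read. Of 9 CXC chemokine genes 6 rose and 0 fell, among them Cxcl12, the ligand of CXCR4, by 1.10 ± 0.10.

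Of 14 tested immediate-early genes, which cells induce within minutes of a stimulus, 9 rose and 0 fell in these cells at 48 h, with Fos at 1.47 ± 0.11 and Egr1 at 1.27 ± 0.09. Of 24 kinesin genes 9 fell and 0 rose, and Kif15, a mitotic motor gene, fell by 1.34 ± 0.17. Of 10 purinergic P2 receptor genes 3 fell and 0 rose, with P2ry12, a receptor of microglia and platelets, at -1.32 ± 0.12. Of 4 STEAP metalloreductase genes 3 rose, with Steap1 at 1.58 ± 0.11. Of 13 H2A histone genes 10 fell and 0 rose, while of 26 H2B, H3 and H4 genes 0 passed by limma (1 higher and 1 lower at an unadjusted p under 0.05). Histone genes are near-identical copies, so the assignment of these probes is uncertain.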
